A study of Mus musculus with 2 samples.

Results

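A set of 9 genes of FOXO and PI3K-AKT signalling were examined in G1E-ER4 cells: the transcription factor genes Foxo1, Foxo3 and Foxo4, the kinase genes Akt1 and Akt2, the PI3K subunit genes Pik3r1 and Pik3cd, and Tsc1 and Tsc2. They were chosen by name and are 9 of the 43346 Ensembl genes in the gene tables, 21474 of which were protein-coding. All 9 were found by identifier, and 8 were detected, meaning 1 TPM (the authors' abundance per transcript length) or more in each library, where 39% of protein-coding genes were. Akt1 was the highest of the set and Foxo1 had a single estimated read. Foxo3 and Foxo4 made up the FOXO transcripts, and Pik3cd most of those of the class IA catalytic subunits.

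PI3K is a lipid kinase made of a regulatory and a catalytic subunit, and it acts below cytokine receptors such as those for erythropoietin and KIT ligand. Its product recruits AKT kinases to the membrane, and active AKT phosphorylates FOXO factors, which then leave the nucleus, and TSC2, which relieves the brake that the TSC complex puts on mTORC1. In red cell precursors Foxo3 is known for antioxidant and late maturation genes, and PI3K signalling for survival and expansion. RNA levels do not report phosphorylation or protein, and in bulk RNA a smaller number of expressing cells and less RNA per cell cannot be told apart.

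The cells came from an immortalized mouse line. Its G1E parent lacks Gata1, and G1E-ER4 carries GATA1 joined to an estrogen receptor's ligand-binding domain, which puts the factor under the control of estradiol. The labels describe induction with estradiol, give neither dose nor time, and name 2 biological replicates of 1 group, a postnatal male line at an age of 0 days. The replicates share 1 biosample record and may be technical repeats, and with no untreated cells here no effect of estradiol could be tested. Depth of the polyA libraries was 68901065 (replicate 1) and 51923117 (replicate 2) estimated counts. All 7 erythroid markers were detected, with summed levels of 17722 TPM in replicate 1, against 20085 TPM in replicate 2. Most of these sums came from the globin genes Hba-a1 (6746 and 8936 TPM) and Hbb-bs (7940 and 7235 TPM). Gata1, at 1498 and 2430 TPM, is no independent marker here, since the line carries an introduced GATA1. None of 20 markers of T cells, B cells, macrophages and granulocytes, endothelial cells and fibroblasts was detected; their sums were 0.23 TPM in replicate 1, against 0.50 TPM in replicate 2, and the highest single value was 0.21 TPM.

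The sites through which AKT acts on FOXO factors are shown because the 3 FOXO genes share them while their RNA levels do not match. A script translated the longest coding sequence of each gene in GENCODE M21 (mm10) and searched for arginine, any residue, arginine, any 2 residues, then serine or threonine. It found 3 matches in each gene. The coding stretches read 5′ to 3′ on the gene's strand, with the arginine codons and the serine or threonine codon in capitals, and codons counted from the start methionine.
Foxo1 codon 24: CGGcagCGCtcctgtACC
Foxo1 codon 253: CGGagaAGAgctgcgTCC
Foxo1 codon 316: CGTcctCGAaccagcTCA
Foxo3 codon 32: CGGccaCGCtcctgtACG
Foxo3 codon 252: CGGcggCGTgcggtcTCC
Foxo3 codon 314: CGCtcgCGCaccaatTCC
Foxo4 codon 32: CGTccgCGAtcctgcACC
Foxo4 codon 197: CGCcgcAGGgctgccTCC
Foxo4 codon 262: CGTccaCGAagcagtTCA
The matches lie at similar places in the 3 proteins, whose coding sequences span 652 codons in Foxo1, 672 in Foxo3 and 505 in Foxo4. The last codon of the first match in each gene encodes threonine, and that of the other matches serine. In the order above, the Foxo1 matches lie at chr3:52268856-52268873, chr3:52345159-52345176 and chr3:52345348-52345365 on the plus strand. Those of Foxo3 lie at chr10:42275338-42275355, chr10:42197764-42197781 and chr10:42197578-42197595 on the minus strand. Those of Foxo4 lie at chrX:101254899-101254916, chrX:101258297-101258314 and chrX:101258492-101258509 on the plus strand.

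Foxo1 (ENSMUSG00000044167, chromosome 3, 52268336 to 52353221, plus strand), which in other tissues drives gluconeogenic and atrophy genes, had 1 estimated count in replicate 1 and 0 in replicate 2, and 0 TPM in both. At these depths a limit of 3 counts corresponds to 0.00586 TPM in replicate 1, against 0.00783 TPM in replicate 2. Its antisense partner Gm20402, which overlaps 674 exon bases, had 0 counts in both libraries. Foxo1 was therefore not detectable at this depth, while Foxo3 and Foxo4 were detected in both libraries.

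Foxo3 (ENSMUSG00000048756, chromosome 10, 42181841 to 42276755, minus strand) stood at 98.3 TPM in replicate 1, against 69.3 TPM in replicate 2, from 16091 and 11433 estimated counts. Its mean of 83.8 ± 20.5 TPM (SD, n = 2) lay at the 80.3 percentile of the 8376 detected protein-coding genes, whose median was 20.5 TPM. In replicate 1 the ratio of Foxo3 to Foxo1 per length was 50367 (95% Clopper-Pearson interval 9039 to 1989524, counting error only). In replicate 2, where Foxo1 had 0 counts, the lower end of the same kind of interval was 7194. With Foxo1 at the limit of 3 counts in that library, the ratio was 8847.

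Foxo4 (ENSMUSG00000042903, chromosome X, 101254528 to 101260873, plus strand), a paralog under the same AKT control, had 58.5 TPM in replicate 1, against 51.0 TPM in replicate 2, with a mean of 54.8 ± 5.30 TPM. The Foxo3 to Foxo4 ratio was 1.68 in replicate 1 and 1.36 in replicate 2, so Foxo3 was higher in both libraries and the libraries' ranges did not overlap. Foxo3 held 62.7% of the summed FOXO TPM in replicate 1 and 57.6% in replicate 2, and Foxo4 nearly all of the rest. Foxo6 was listed at 0 TPM in replicate 1, against 0.01 TPM in replicate 2.

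Akt1 (ENSMUSG00000001729, chromosome 12, 112653821 to 112674884, minus strand), the broadly expressed growth and survival kinase, had 449 TPM in replicate 1, against 382 TPM in replicate 2. Its mean of 415 ± 47.3 TPM lay at the 96.1 percentile of detected protein-coding genes. Akt2 (ENSMUSG00000004056, chromosome 7, 27591552 to 27640826, plus strand), known for insulin-driven glucose uptake, had 93.0 TPM in replicate 1, against 87.7 TPM in replicate 2, and averaged 90.4 ± 3.75 TPM at the 81.5 percentile. Akt1 exceeded Akt2 by 4.82-fold in replicate 1 and 4.35-fold in replicate 2. Akt2 shared 13.3% of its 31-base sequences with other genes, chiefly with the pseudogene Akt2-ps, which was given 73.3 estimated counts in replicate 1 and 38.4 in replicate 2, against 16789 and 11883 for Akt2.

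Pik3cd (ENSMUSG00000039936, chromosome 4, 149649168 to 149702571, minus strand) encodes p110 delta, the catalytic subunit enriched in blood cells. It had 22.5 TPM in replicate 1, against 27.8 TPM in replicate 2, and averaged 25.2 ± 3.75 TPM. The widely expressed catalytic genes were far lower: Pik3ca had 1.21 TPM in replicate 1, against 1.62 TPM in replicate 2, and Pik3cb 0.91 TPM in replicate 1, against 1.17 TPM in replicate 2. Pik3cd thus held 91.4% of summed class IA catalytic TPM in replicate 1 and 90.9% in replicate 2, and its ratio to Pik3ca was 18.6 in replicate 1 and 17.2 in replicate 2. GC content was also highest for Pik3cd, while Pik3cb had more GC than Pik3ca and a lower level. The longest transcript had 57.0% GC for Pik3cd, 41.2% for Pik3ca and 45.8% for Pik3cb, and across the protein-coding genes whose counts averaged 10 or more the median level was 39.2 TPM in the GC decile of Pik3cd, 4.26 TPM in that of Pik3ca and 8.18 TPM in that of Pik3cb. The part of GC content in the ratio was not tested.

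Pik3r1 (ENSMUSG00000041417, chromosome 13, 101680563 to 101768217, minus strand) encodes the p85 alpha regulatory subunit and its shorter p55 and p50 forms. It had 10.2 TPM in replicate 1, against 7.71 TPM in replicate 2, and averaged 8.94 ± 1.74 TPM. Its paralog Pik3r2, which encodes p85 beta, had 87.4 TPM in replicate 1, against 70.2 TPM in replicate 2, and exceeded Pik3r1 by 8.59-fold in replicate 1 and 9.11-fold in replicate 2. Pik3r1 supplied 9.70% of the regulatory TPM in replicate 1 and 9.12% in replicate 2, and Pik3r2 83.3% and 83.0%. The longest transcript had 61.4% GC for Pik3r2 and 44.9% for Pik3r1. The median level was 34.8 TPM in the GC decile of Pik3r2 and 8.18 TPM in that of Pik3r1. The part of GC content in this ratio of Pik3r2 to Pik3r1 was not tested either. The ratio of Pik3r1 to Pik3cd was 0.451 in replicate 1 and 0.277 in replicate 2, while summed regulatory over summed catalytic TPM was 4.25 in replicate 1 and 2.76 in replicate 2. The choice to compare Pik3r2, Pik3ca and Pik3cb came after their values were seen.

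Tsc2 (ENSMUSG00000002496, chromosome 17, 24595816 to 24632630, minus strand), the subunit with GTPase-activating function toward RHEB, had 17.8 TPM in replicate 1, against 22.5 TPM in replicate 2, and averaged 20.2 ± 3.30 TPM. Tsc1 (ENSMUSG00000026812, chromosome 2, 28641228 to 28691167, plus strand), its stabilizing partner, had 4.18 TPM in replicate 1, against 6.54 TPM in replicate 2, and averaged 5.36 ± 1.67 TPM. Tsc2 exceeded Tsc1 by 4.27-fold in replicate 1 and 3.44-fold in replicate 2. The third subunit gene, Tbc1d7, had 6.24 TPM in replicate 1, against 7.35 TPM in replicate 2, so the order Tsc2, Tbc1d7, Tsc1 held in both libraries. Tsc2 overlaps Pkd1 on the opposite strand over 693 exon bases and shares 9.05% of its 31-base sequences with it. Pkd1 had 2.95 TPM in replicate 1, against 4.04 TPM in replicate 2. Use of strand in counting was not given in the sources used here, so reads in that overlap cannot be told apart.

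**Figure D1:**
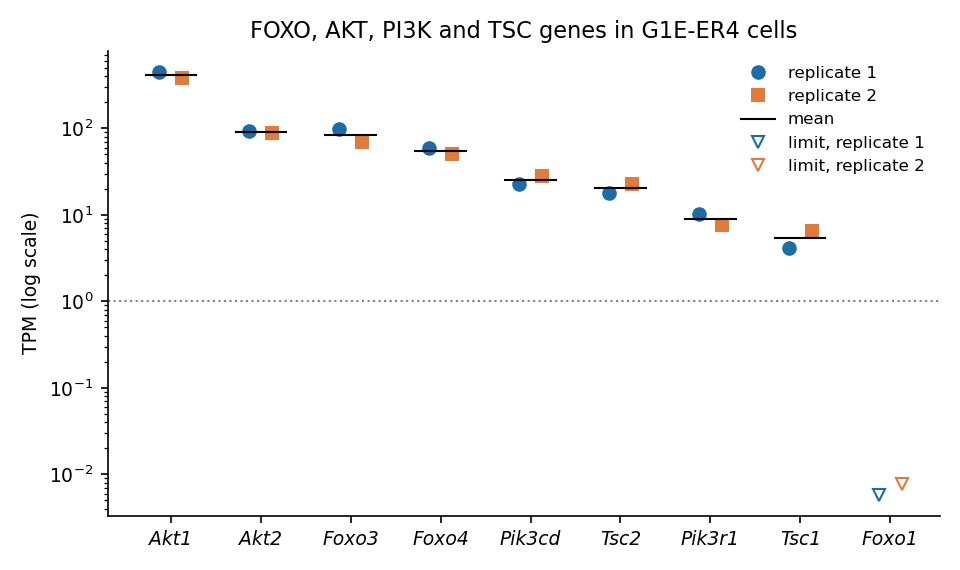
Levels of the 9 genes in TPM on a log axis, with circles for replicate 1, squares for replicate 2 and a bar for the mean; open triangles mark the limit of 3 counts for Foxo1, and the dotted line is 1 TPM. Akt1 lies above 300 TPM in both libraries, and Foxo1 below 0.01 TPM.

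From high to low, mean TPM ran Akt1, Akt2, Foxo3, Foxo4, Pik3cd, Tsc2, Pik3r1, Tsc1 and Foxo1. Akt2 and Foxo3 were the neighbours whose library values overlapped by the authors' TPM: their ratio was 0.946 in replicate 1 and 1.27 in replicate 2. The effective length of Foxo3, the estimate by which counts are divided, differed between the libraries, as described below. With mean lengths over both libraries, Akt2 led in replicate 1 (92.8 against 83.7 TPM) and in replicate 2 (87.9 against 79.6 TPM). The ranges of Akt2 and Foxo3 then did not overlap. By the authors' TPM, Pik3cd and Tsc2 nearly touched, with 22.54 TPM as the lower Pik3cd value and 22.49 TPM as the higher Tsc2 value. Within each library, though, Pik3cd was the higher, 1.26-fold in replicate 1 and 1.24-fold in replicate 2. The median of the 9 genes was 25.2 TPM.

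Transcript models were compared by their share of the gene's TPM, as estimated by the authors. Akt1 and Akt2 were simple. Akt1-201 took 96.21% of Akt1 in replicate 1 and 96.15% in replicate 2. Akt2-214 took 80.8% in replicate 1 and 81.3% in replicate 2, with Akt2-205 at 18.3% and 17.95%, and the 4 models with the complete Akt2 coding sequence summed to 99.2% in replicate 1 and 99.6% in replicate 2.

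Foxo3 was split among 3 models. Foxo3-204 held 56.0% in replicate 1 and 52.8% in replicate 2, the long model Foxo3-203 (6848 bases) 19.1% and 34.9%, and the incomplete 514-base model Foxo3-205 24.0% and 11.3%. Foxo3-205 rested on 505 estimated counts in replicate 1 and 129 in replicate 2, or 3.14% and 1.13% of the gene's counts. Models with the complete coding sequence summed to 74.7 TPM in replicate 1, against 61.4 TPM in replicate 2. Foxo4-201, with the full 505 codons, held 58.0% in replicate 1 and 64.4% in replicate 2. The non-coding Foxo4-203 took most of the remainder, 41.5% in replicate 1 and 35.02% in replicate 2, and coding Foxo4 came to 33.9 TPM in replicate 1, against 32.9 TPM in replicate 2. Foxo4-203, a model of 1030 bases, held 17.2% of the gene's counts in replicate 1 and 13.7% in replicate 2.

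For Tsc1, the split between the coding models Tsc1-202 and Tsc1-204 differed between the libraries. Tsc1-202 held 47.3% in replicate 1 and 33.3% in replicate 2, and Tsc1-204, which starts 17339 bases downstream, 16.6% and 34.6%. By posterior mean shares Tsc1-202 was the higher in both libraries, at 42.4% against 14.6% for Tsc1-204 in replicate 1 and 32.0% against 27.4% in replicate 2. Coding models together held 76.9% in replicate 1 and 81.6% in replicate 2, and the retained-intron model Tsc1-208 19.5% and 15.3%. Tsc1-208 rested on 30.13 estimated counts in replicate 1 and 28.04 in replicate 2, or 2.01% and 1.53% of the gene's counts. Tsc2 has 1 model in the annotation of the files and 22 in M21, so its share of 100% is by construction.

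**Figure D2:**
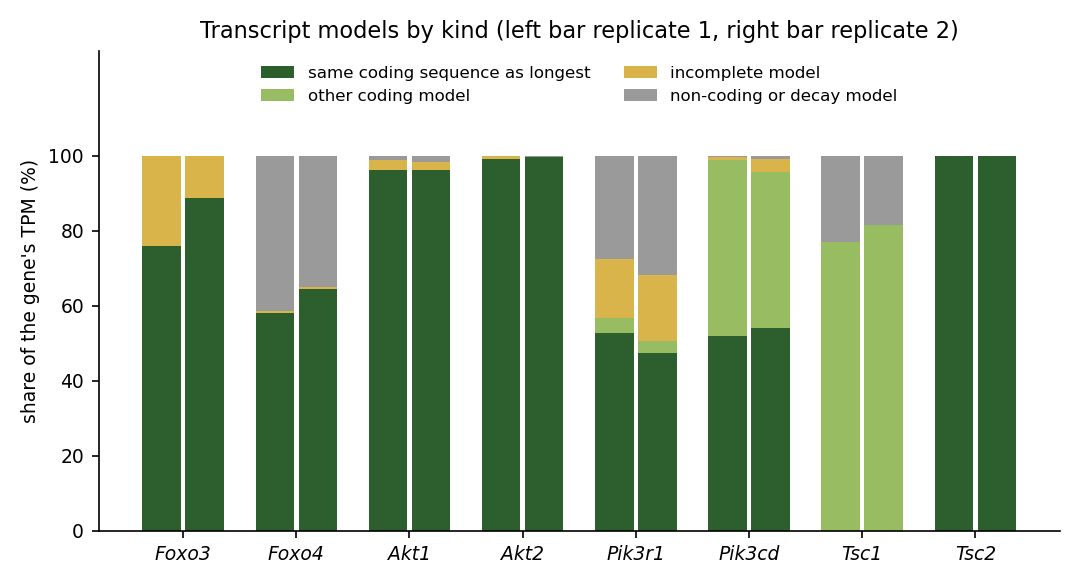
Share of each gene's TPM by kind of transcript model, in percent, with replicate 1 as the left bar and replicate 2 as the right bar of each pair. Akt1 and Akt2 are over 96% complete coding models in both libraries, while non-coding models hold 41.5% (replicate 1) and 35.02% (replicate 2) of Foxo4, and 27.4% and 31.7% of Pik3r1.

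Pik3r1 and Pik3cd each have separate promoters, and their models differed in start site. The distal Pik3r1 start, which makes p85 alpha, held 79.5% of the gene's TPM in replicate 1 and 78.1% in replicate 2. Of this, the complete model Pik3r1-202 (724 codons) held 52.6% in replicate 1 and 47.3% in replicate 2, and the retained-intron model Pik3r1-206 26.9% and 30.8%. Pik3r1-206, a model of 2706 bases, held 15.1% of the gene's counts in replicate 1 and 18.5% in replicate 2. Starts 73617 to 75641 bases downstream, where p55 and p50 begin, were minor. Pik3r1-205 held 11.1% in replicate 1 and 12.6% in replicate 2, Pik3r1-204 4.71% and 5.10%, and the complete short model Pik3r1-201 (454 codons) 4.14% and 3.34%. Pik3r1-205 and Pik3r1-204 are incomplete models, so their annotated starts may not be true starts. The shares of the downstream starts rested on few reads, since Pik3r1-205 had 37.0 estimated counts in replicate 1 and 24.2 in replicate 2 (1.33% and 1.63% of the gene's counts).

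For Pik3cd, the start 3863 bases below the most upstream one held 73.7% in replicate 1 and 68.0% in replicate 2, shared by Pik3cd-201 (41.0% and 22.8%) and Pik3cd-204 (32.7% and 45.2%). Pik3cd-214, from a start 28377 bases below the most upstream one, held 19.3% in replicate 1 and 8.79% in replicate 2. Pik3cd-206, which starts 981 bases below it, was at 0% in replicate 1 and 16.4% in replicate 2, so the share of single Pik3cd models moved between the libraries more than that of the leading start.

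**Figure D3:**
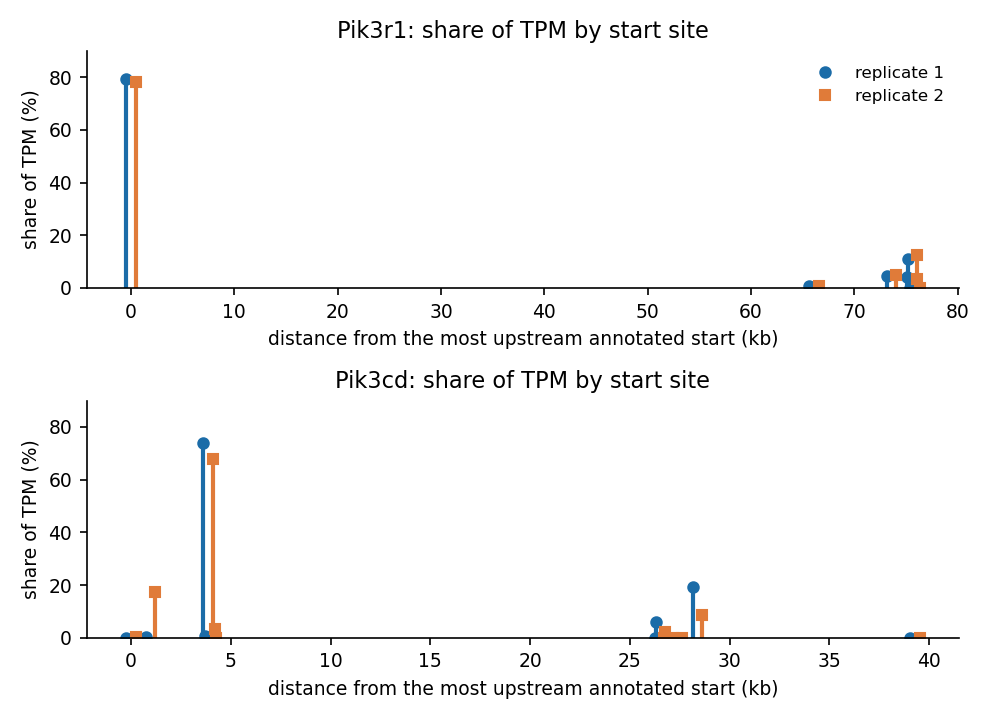
Share of TPM, in percent, at each annotated start of Pik3r1 and Pik3cd against distance from the most upstream start in kb, with circles for replicate 1 and squares for replicate 2, drawn slightly to either side of the true distance. The distal Pik3r1 start lies at 79.5% and 78.1%, and the Pik3cd start at 3863 bases at 73.7% and 68.0%.

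Promoter sequence beside these starts is shown for the pairs that the shares separate. RefSeq windows (GRCm38.p6) run from 250 bases before to 50 after each start, and the bases before the start that lie in no annotated exon are printed 5′ to 3′ on the gene's strand. Capitals mark a match to the forkhead motif GTAAACA.
Pik3r1 distal, chr13:101768218-101768467, minus strand: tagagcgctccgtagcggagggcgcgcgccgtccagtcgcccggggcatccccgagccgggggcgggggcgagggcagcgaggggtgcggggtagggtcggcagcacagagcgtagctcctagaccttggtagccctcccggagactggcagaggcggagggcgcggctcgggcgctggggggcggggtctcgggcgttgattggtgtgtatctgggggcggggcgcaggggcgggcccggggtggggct
Pik3r1 internal, chr13:101692631-101692880, minus strand: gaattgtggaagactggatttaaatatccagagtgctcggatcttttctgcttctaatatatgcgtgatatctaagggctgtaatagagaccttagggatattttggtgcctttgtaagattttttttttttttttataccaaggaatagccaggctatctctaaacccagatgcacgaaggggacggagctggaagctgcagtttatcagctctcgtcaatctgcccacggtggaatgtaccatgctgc
Pik3cd upstream, chr4:149698709-149698958, minus strand: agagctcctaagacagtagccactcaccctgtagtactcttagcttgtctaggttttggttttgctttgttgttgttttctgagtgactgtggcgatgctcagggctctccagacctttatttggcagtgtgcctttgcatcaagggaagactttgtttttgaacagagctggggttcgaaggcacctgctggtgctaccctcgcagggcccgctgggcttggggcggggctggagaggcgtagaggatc
Pik3cd internal, chr4:149676094-149676339, minus strand: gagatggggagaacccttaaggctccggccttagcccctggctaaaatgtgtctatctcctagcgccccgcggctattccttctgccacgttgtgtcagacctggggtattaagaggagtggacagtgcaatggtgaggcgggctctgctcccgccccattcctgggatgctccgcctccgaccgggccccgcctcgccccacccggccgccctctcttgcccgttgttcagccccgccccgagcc
Akt1 upstream, chr12:112674885-112675134, minus strand: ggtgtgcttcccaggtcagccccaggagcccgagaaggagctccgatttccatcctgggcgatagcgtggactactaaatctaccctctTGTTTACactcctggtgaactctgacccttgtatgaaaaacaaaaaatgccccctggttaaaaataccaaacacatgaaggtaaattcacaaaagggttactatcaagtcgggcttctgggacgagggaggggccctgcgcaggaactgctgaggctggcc
Akt1 main, chr12:112674277-112674526, minus strand: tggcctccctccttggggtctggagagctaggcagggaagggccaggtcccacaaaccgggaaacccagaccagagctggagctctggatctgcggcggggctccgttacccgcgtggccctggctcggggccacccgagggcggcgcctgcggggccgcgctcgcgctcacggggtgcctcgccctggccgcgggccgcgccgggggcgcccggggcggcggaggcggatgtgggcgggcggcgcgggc
The 250 bases before the leading Pik3r1 start were 76.4% GC with 30 CpG, and those of the internal start 42.4% GC with 6. Pik3cd ran the other way at the internal start printed here. Its leading start had 53.6% GC and 6 CpG, and that internal start, near which Pik3cd-205 begins (5.95% of TPM in replicate 1 and 2.33% in replicate 2), had 66.0% GC and 19 CpG. Another internal Pik3cd start, at chr4:149663316, had 54.0% GC and 4 CpG, and the start of Pik3cd-214 had no window. Akt1 had 78.4% GC and 31 CpG before its main start, and 52.0% GC and 7 CpG before the upstream start, whose model Akt1-208 held 2.07% in replicate 1 and 1.56% in replicate 2.

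Windows of the 9 genes were searched on both strands for AGATAA, a motif bound by GATA factors, and GTAAACA, one bound by forkhead factors. AGATAA occurred in 2 of 15 windows, in Tsc1 at position -159 and, within the first exon, in Pik3cd at position 14, counted from the start base as 0, and 11.2% of 32851 windows of the same length held it. GTAAACA occurred in 1 of 15 windows, upstream Akt1 at position -161, and 3.65% of all windows held it. A match is a string of letters only.

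The libraries were set against each other to see how closely they matched at these genes. Estimated counts were rounded and scaled by TMM, and an exact two-sided binomial test with Benjamini-Hochberg adjustment over 10863 genes was used. It compares 2 libraries and holds counting error only. Of 8 testable genes 5 were called, 2 higher in replicate 1 and 3 higher in replicate 2, where 68.7% of all genes were called, 34.2% higher in replicate 1 and 34.5% higher in replicate 2. The members' count is near that background. None of the 8 differed by 2-fold or more, while 9.01% of all genes tested were called and did. Scaling by library totals moved log2 ratios by 0.11 and called all 8 testable genes, 5 of them higher in replicate 1. It called 71.7% of all genes tested, and 60.9% of those calls were higher in replicate 1, against 49.8% with TMM.

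Tsc1 differed the most of the set, with a log2 ratio of replicate 1 to replicate 2 of -0.81 (95% interval -0.91 to -0.71, exact binomial adjusted p = 2.67e-57). The exact binomial test also called Tsc2 at -0.43 (adjusted p = 7.80e-60) and Pik3cd at -0.36 (adjusted p = 4.95e-41), all 3 higher in replicate 2. Higher in replicate 1 by the same exact test were Pik3r1 at 0.39 (adjusted p = 3.13e-17) and Akt1 at 0.13 (adjusted p = 1.57e-49). The median size of the log2 ratio over all genes tested was 0.30, which Tsc1, Tsc2, Pik3cd and Pik3r1 exceeded and Akt1 did not. With a coefficient of variation of 0.1 added to counting error, Tsc1 was the 1 gene of the set still called, where 18.7% of all genes were.

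Foxo3, Foxo4 and Akt2 were not called by the exact binomial test. Their log2 ratios were -0.02 for Foxo3 (95% interval -0.06 to 0.01, adjusted p = 0.281), 0.00556 for Foxo4 (adjusted p = 0.877) and -0.02 for Akt2 (adjusted p = 0.427). With library totals the values were 0.08, 0.11 and 0.09, and with DESeq2 size factors Foxo4 was at -0.00463, so no direction is given for them. For Foxo3 the TPM values give a ratio of 1.42, while scaled counts give 0.985. Its effective length, the estimate by which counts are divided, was 2718 bases in replicate 1 and 3669 bases in replicate 2. At the mean of both lengths Foxo3 stood at 83.7 TPM in replicate 1, against 79.6 TPM in replicate 2, so the TPM difference went with the transcript split described above.

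**Figure D4:**
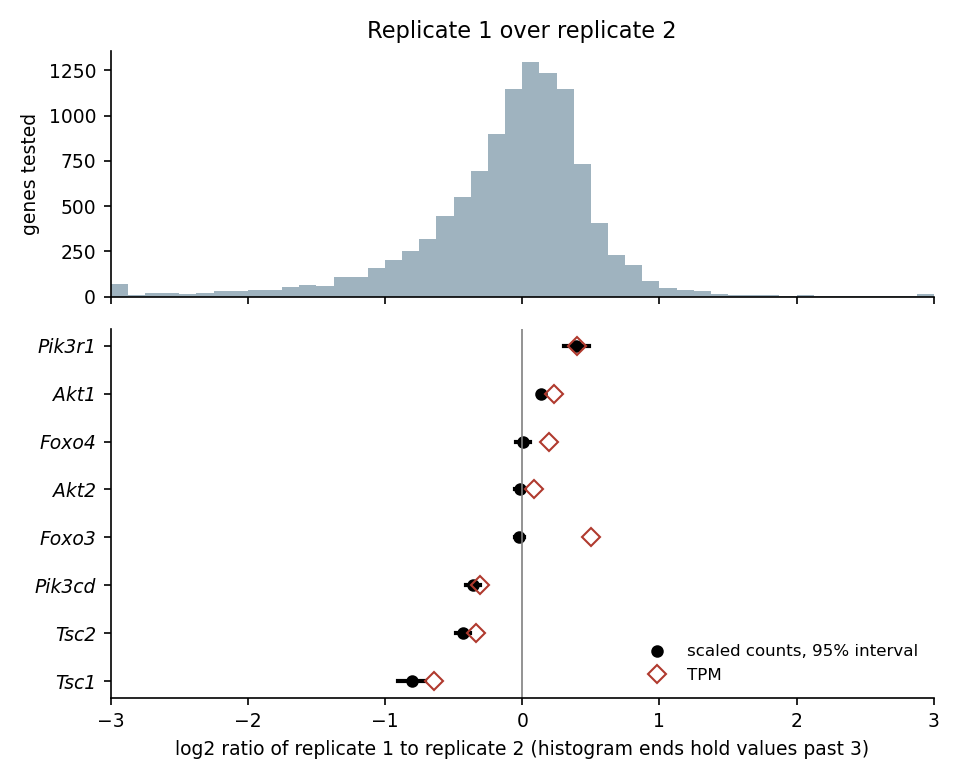
Log2 ratio of replicate 1 to replicate 2: above, a histogram over the genes tested, with values past 3 in the end bins; below, the 8 detected genes, with filled circles and 95% Clopper-Pearson intervals for scaled counts and open diamonds for TPM. Foxo3 lies at -0.02 by counts and 0.51 by TPM, and Tsc1 at -0.81 and -0.65.

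The other genes of the pathway were listed with earlier results of these data known. Detected were 71 of 96 such genes (74.0%), and their list had a median of 10.9 TPM over all 96. The exact binomial test could be run on 77, of which 37 were called higher in replicate 1 and 31 higher in replicate 2, where 34.2% and 34.5% of all genes tested were. By scaled counts 3 of those, Gab2, Ppp2r1a and Sgk1, differed by at least 2-fold, all higher in replicate 2, beside 9.01% of all genes tested that were called and differed as much. Gab2, an adaptor, was at 4.33 TPM in replicate 1, against 10.4 TPM in replicate 2, and Sgk1, a kinase related to AKT, at 1.27 TPM in replicate 1, against 2.20 TPM in replicate 2. The scaled count log2 ratio of Sgk1 was -1.58, and its effective length was 1272 bases in replicate 1 and 2047 bases in replicate 2. Of the 12 other PI3K subunit genes 5 were detected, led by Pik3r2, Pik3r4 at 7.92 TPM and Pik3r3 at 6.97 TPM on average. Those below 1 TPM in both libraries were Pik3cg, the gamma catalytic gene, with its partners Pik3r5 and Pik3r6, and the class II genes Pik3c2a, Pik3c2b and Pik3c2g.

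Upstream, 8 of 10 receptors and adaptors were detected. The highest were Grb2, an adaptor (211 TPM in replicate 1, against 161 TPM in replicate 2), Epor, the erythropoietin receptor (133 TPM in replicate 1, against 176 TPM in replicate 2), and Irs2, an insulin receptor substrate (107 TPM in replicate 1, against 95.9 TPM in replicate 2). Insr, the insulin receptor, and Irs1 had 0 counts in both libraries. Phosphatases that oppose PI3K and AKT were detected for 8 of 9 genes, all but Inpp4b. The highest mean was that of Inpp5d, the blood cell lipid phosphatase SHIP1, at 201 TPM in replicate 1, against 98.3 TPM in replicate 2. Its effective length was 1732 bases in replicate 1 and 4500 bases in replicate 2, and its scaled count ratio was 0.738, so no level difference is drawn from the TPM. Ppp2r1a, a scaffold subunit of a serine/threonine phosphatase, had 27.0 TPM in replicate 1, against 111 TPM in replicate 2, where it was above Inpp5d by TPM. At each gene's mean effective length over both libraries, though, Inpp5d was the higher in replicate 2, at 142 TPM against 112 TPM. Inppl1 averaged 45.4 TPM.

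Of 7 genes for kinases that activate AKT 4 were detected. Mapkap1, an mTORC2 subunit, averaged 111 TPM and Mtor 13.8 TPM. Their counts were close, at 4605 in replicate 1 and 4006 in replicate 2 for Mapkap1, against 4346 and 4453 for Mtor. Effective lengths were 711 and 785 bases for Mapkap1, against 6121 and 6291 bases for Mtor. Pdpk1, the kinase of the AKT activation loop, had 24.8 TPM in replicate 1, against 102 TPM in replicate 2 from 3592 and 2734 estimated counts, with effective lengths of 2407 and 594 bases and a scaled count ratio of 0.920. Rictor, also of mTORC2, was not detected, at 0.88 TPM in replicate 1, against 1.05 TPM in replicate 2. The mTORC2 partners Prr5 and Prr5l had 0 counts. Of TSC and mTORC1 genes 9 of 10 were detected, all but Deptor. Among them Eif4ebp1, a translation repressor that mTORC1 inactivates, averaged 915 TPM, Akt1s1, an AKT substrate in mTORC1, 906 TPM, and Eif4ebp2 124 TPM. Of other AKT substrates and related kinases 6 of 7 were detected, led by Gsk3a at 178 TPM, Bad at 65.4 TPM and Mdm2 at 24.8 TPM, and Sgk2 was not detected.

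All 13 genes for handling FOXO proteins were detected, led by the phosphoserine-binding adaptor genes Ywhae at 530 TPM, Ywhaz at 273 TPM and Ywhag at 250 TPM on average. Detected were 19 of 28 genes known as FOXO targets in one tissue or another, and the list's median was 19.4 TPM. The highest were Bbc3, the death gene PUMA, at 290 TPM in replicate 1, against 221 TPM in replicate 2, Cat, for catalase, at 218 TPM in replicate 1, against 150 TPM in replicate 2, and Cited2, a transcriptional regulator, at 186 TPM in replicate 1, against 142 TPM in replicate 2. The TPM order of Cat went against its counts: its effective length was 903 bases in replicate 1 and 1903 bases in replicate 2, and its scaled count ratio was 0.646. Below 1 TPM in both libraries were the atrophy genes Fbxo32 and Trim63, the gluconeogenic genes G6pc and Pck1, and Klf2, Il7r, Bcl6, Sesn3 and Insr. Of the 19 that could be tested, 12 were called higher in replicate 1 and 6 higher in replicate 2, where 34.2% and 34.5% of all genes tested were, and nothing particular to the list is read from this. Irs2 and Insr are also in the list of receptors and adaptors. These levels do not show that FOXO factors act on the genes, which was not tested.

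**Figure D5:**
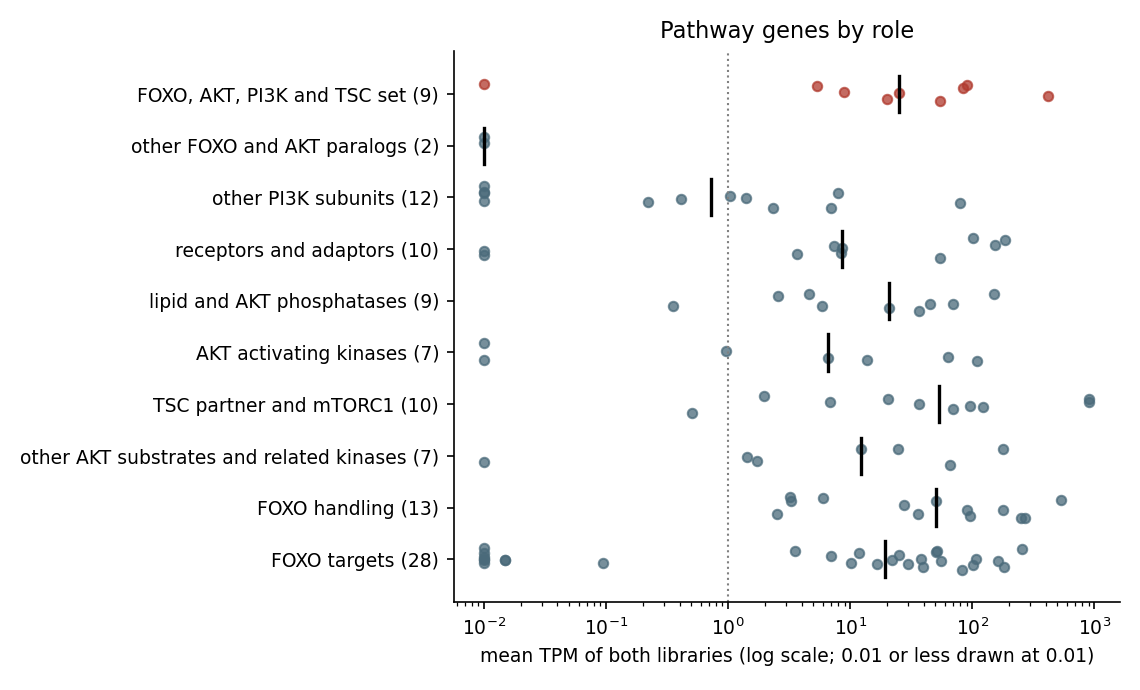
Mean TPM of both libraries on a log axis for each gene, by role, with the number of genes in brackets, a bar at each list's median and a dotted line at 1 TPM; values of 0.01 or less are drawn at 0.01. The other PI3K subunits have the lowest median of the lists with more than 2 genes, 0.725 TPM.

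Nearness of level was measured as the distance on log2(TPM + 1) over the 2 libraries among 104 pathway genes. Foxo3 lay nearest to Sod2 (0.04) and Foxo4 to Bnip3 (0.05). Akt2 lay nearest to Ywhab (0.19), Akt1 to Ywhae (0.51), Pik3r1 to Cbl (0.11) and Tsc1 to Skp2 (0.28). Pik3cd and Tsc2 were both nearest to Pink1, at 0.28 and 0.25. With 2 points this is a likeness of levels only.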

How the data were processed

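PolyA RNA of 2 G1E-ER4 libraries was measured by paired-end RNA-seq, and a gene and a transcript table of each were used. Estimated counts (expected counts, which need not be whole), TPM and FPKM are as deposited by the authors, per the file headers, and the authors' isoform shares are the percent of gene TPM that a model takes. The build is mm10 with GENCODE M4, per the labels and the deposited readme files. The aligner, the quantifier and any use of strand in counting were not given in the sources used here.

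Gene names and positions were taken from GENCODE M21 by identifier, which matched 42462 of 43346 genes and all 131 list symbols. The 9 genes and all lists were chosen with earlier results of these data known. The text names all 9, the 3 highest of each list, those under 1 TPM in both libraries, the nearest gene by level, and the 3 leading transcript models of each gene with the Pik3r1 models at the distal and internal starts. Gab2, Sgk1, Rictor, Tbc1d7, Pkd1, Akt2-ps, Gm20402, Pik3ca and Pik3cb fall outside that rule and were named after their values were seen. A few genes covered by this rule are not reported here. Starts within 20 bases were joined.

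Library scaling by TMM used edgeR 4.0.16 in R 4.3.3. With 1 group, a comparison of replicate 1 with replicate 2 leaves no residual degrees of freedom, so rounded counts of genes with a mean of at least 10 were tested with scipy 1.17.1 by the exact binomial test, two-sided, with Benjamini-Hochberg adjustment at 0.05. Intervals are 95% Clopper-Pearson and, like the limit of 3 counts, cover counting error only, since PCR reads are not independent molecules. In simulated counts of the 10863 genes for replicate 1 against replicate 2, the test found 92% of 50 genes made 2-fold higher, 76% of 50 set to 0.5, and 0.0281% of 10663 left alone. Those counts held counting error alone, while edgeR put the biological coefficient of variation of the real libraries at 0.300.

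Alternatives were FPKM, posterior means, rescaled TPM leaving out globin and mitochondrial genes, other TPM minimums, count filters, library totals, DESeq2 1.42.0 size factors, TPM pseudocounts of 0.1 and 1, an added coefficient of variation and each library alone. Chosen after seeing the data were a common effective length and the ratios with Pik3r2, Pik3ca, Pik3cb, Tbc1d7 and Foxo3 with AKT genes.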

Additional observations from a re-analysis of the deposited data

How the results depend on the processing

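The number of the 9 genes called between the libraries was 5, became 8 with library totals and 1 once a further coefficient of variation of 0.1 joined the counting error, and was 5 under DESeq2 size factors, both other count filters and posterior mean counts. The share of all genes called was 71.7% with library totals and 18.7% with the added variation. Of the other PI3K subunits, 3 were detected at a minimum of 5 TPM, against 5 at 1 TPM. No other count or planned ratio that the report leads with moved past its limit, and no call reversed. The share of the model that led by TPM in a gene's counts, rather than its TPM, was on average 41.7% for Foxo3-204, 84.3% for Foxo4-201 and 78.9% for Pik3r1-202. By counts Foxo3-203 held 47.0% in replicate 1 and 63.8% in replicate 2, against 49.0% and 34.4% for Foxo3-204, so Foxo3-203 led in replicate 2. No paired analysis was possible because the libraries form 1 group. Levels of the 8 detected genes rest on 1480 counts or more, and depth limits Foxo1 and transcript models with few counts, such as Tsc1-208 and the short Pik3r1 models.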
